A study of Mus musculus with 8 samples.

Results

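The sites described here are promoter positions that wild type KLF1-ER occupied in mouse erythroid cells and at which mutant KLF1-E339K-ER gave few reads. They were chosen from the authors' ChIP-seq site table as those with a KLF1-ER concentration of at least 4, a KLF1-E339K-ER concentration under 2 and a midpoint no more than 1000 bp from the closest transcription start site (TSS). A concentration is the log2 of the mean normalised read count at a site, so 2 stands for 4 reads and 4 for 16 reads. The rule took 222 of 5551 consensus sites, with 217 genes as their closest TSS. It took 222 of the 1019 promoter sites at which KLF1-ER reached 4, or 21.8%, and 13.2% of all consensus sites met the same 2 concentration limits wherever they lay. Both percentages were fixed by the rule and are given only for scale.

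K1 cells are an immortalised line from Klf1-/- fetal liver. A retrovirus gave them either wild type KLF1 (K1-ER) or the mutant (K1-E339K-ER), each joined to the ligand-binding part of the estrogen receptor, so no cells had endogenous KLF1. Both fusion proteins enter the nucleus when 4-OHT, an active tamoxifen metabolite, is added. The samples of the series were 1 anti-ER ChIP library and 1 input library of K1-E339K-ER clone 2A after 200 nM 4-OHT for 3 h, and nascent 4sU-RNA libraries, 3 of K1 cells (2 with 4-OHT and 1 with ethanol) and 3 of K1-E339K-ER clones with 4-OHT. By the labels the RNA libraries had 500 µM 4-thiouridine (4sU) for 30 min, with 4-OHT at 200 nM where it was given. The ChIP library combined 3 replicates, also by the labels. The KLF1-ER libraries came from earlier work of the authors and were not analysed here, and the table gives 1 value per protein, so neither concentration has a replicate error and no difference between them was tested. The protein and the experiment in which it was measured cannot be told apart.

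KLF1 is a zinc finger activator of the red cell programme, with targets among globin, heme, membrane and cell cycle genes. Its 3 zinc fingers read a G-rich DNA motif whose central base on that strand is a pyrimidine. The residue changed in KLF1-E339K-ER lies in the finger that contacts this central base, and the equivalent change in people causes a congenital dyserythropoietic anemia. Sites were searched for a pyrimidine motif, which is any base followed by GGGCGGGG, GGGCGTGG, GGGTGGGG or GGGTGTGG. They were also searched for a purine motif, which is any base followed by GGGAGGGG, GGGAGTGG, GGGGGGGG or GGGGGTGG. The authors derived the pyrimidine motif from KLF1-ER peaks and the purine motif from KLF1-E339K-ER peaks. Classes cut on these proteins' own signal are therefore bound to differ in motif share, and the shares below are descriptions, not independent support. Both strands of the 101 bases round each site's midpoint were read. A match describes letters in this window and is not a measured contact.

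Sequence from the mm9 build (NCBIM37) is printed below for 5 of the 10 sites with the highest KLF1-ER concentration, since these had the strongest wild type signal. Of the others, 4 overlap annotated exons and are not printed. Capitals mark pyrimidine motif matches on the strand shown. The windows are chr19:38129328-38129428 (minus strand), chr5:145015909-145016009 (plus strand), chr9:108698173-108698273 (minus strand), chr5:140212420-140212520 (minus strand) and chr9:59387265-59387365 (plus strand), in the order of the lines. None overlaps an exon in GENCODE release M1.
Cep55: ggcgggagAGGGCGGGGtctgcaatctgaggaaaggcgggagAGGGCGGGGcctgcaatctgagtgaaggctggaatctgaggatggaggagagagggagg
Bri3: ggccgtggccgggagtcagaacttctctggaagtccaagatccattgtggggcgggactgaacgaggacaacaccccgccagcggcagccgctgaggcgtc
Ip6k2: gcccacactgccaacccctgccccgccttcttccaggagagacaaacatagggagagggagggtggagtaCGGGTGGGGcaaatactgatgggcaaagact
Micall2: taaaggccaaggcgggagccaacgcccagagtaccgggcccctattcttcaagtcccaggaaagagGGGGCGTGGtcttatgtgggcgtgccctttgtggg
Hexa: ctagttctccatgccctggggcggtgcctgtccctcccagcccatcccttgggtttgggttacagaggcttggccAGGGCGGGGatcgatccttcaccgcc
A further window, chr5:74039027-74039127 (minus strand), belongs to 1 of the few sites with a purine and no pyrimidine match, and its capitals mark the purine match.
Sgcb: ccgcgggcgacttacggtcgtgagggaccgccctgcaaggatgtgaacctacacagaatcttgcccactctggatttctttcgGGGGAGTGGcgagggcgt

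KLF1-ER concentrations of the 222 sites ran from 4.23 to 6.97 with a median of 5.20 (quartiles 4.72 and 5.68), and KLF1-E339K-ER concentrations from -0.38 to 1.99 with a median of 1.08. The difference on the log2 scale had a median of 4.32, a range of 2.38 to 7.31, and reached 4 at 135 sites. At 27 sites the mutant stood at -0.38, the lowest value in the table, so their differences may be lower bounds. The mutant limit cut through a continuous range. The sites just inside it were Ell3 (KLF1-ER 6.08, mutant 1.99), Sars (5.79, 1.99) and Lrig1 (5.20, 1.99), and those just outside it Tspan17 (6.08, 2.03), Klhl26 (5.78, 2.04) and Gm711 (5.25, 2.04). The KLF1-ER limit cut through nothing comparable. The lowest sites inside were Supt20 (4.23, mutant 0.39), Mir130a (4.23, 1.64) and Mppe1 (4.27, -0.38), and the only promoter sites outside it with the mutant under 2 were 2 at the alpha globin gene Hba-a1 (0.50 with mutant 0.05, and -0.09 with mutant -0.38). The 27 sites at the lowest mutant value had a median KLF1-ER concentration of 4.84. After Bri3, the strongest of them were Ifngr2, a chain of the interferon gamma receptor, at 5.79, Gm10433 at 5.48, the splicing factor Plrg1 at 5.30 and Rwdd1 at 5.21, named after their values were seen. Since depth is unknown, a low mutant concentration is a low read count and does not show that binding was absent.

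**Figure D1:**
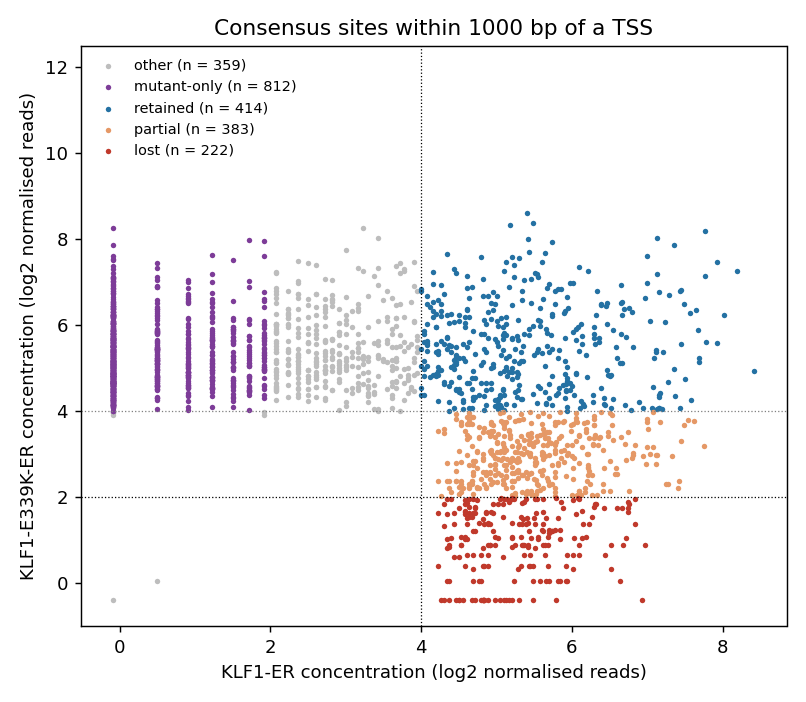
Authors' concentrations at the 2190 consensus sites within 1000 bp of a TSS, KLF1-ER on the horizontal and KLF1-E339K-ER on the vertical axis, both in log2 normalised reads. Each point is 1 site, dotted lines mark limits of 4 and 2, and red points are the 222 lost sites, which merge without a gap into the 383 partial sites above them.

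For comparison, promoter sites with KLF1-ER of at least 4 were divided by the mutant alone, into the 222 lost sites, 383 partial sites (mutant from 2 to under 4) and 414 retained sites (mutant of at least 4). A further 812 promoter sites were mutant-only, with the mutant at least 4 and KLF1-ER under 2. The mutant limit was the same at every KLF1-ER level, so a stronger site needed a larger difference to be lost. Under that limit the share of lost sites was lower at higher KLF1-ER occupancy. Of 348 promoter sites at KLF1-ER 4 to 5, 94 were lost (27.0%), against 93 of 426 at 5 to 6 (21.8%) and 35 of 179 at 6 to 7 (19.6%). None of the 66 sites at 7 or more was lost, and their lowest mutant concentration was 2.22. In the same bins, by rising KLF1-ER, retained sites made up 44.3%, 35.0%, 36.9% and 68.2%, with no steady course.

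Cep55, a midbody protein of cytokinesis, had the highest KLF1-ER concentration among the lost sites, at 6.97 for KLF1-ER and 0.88 for the mutant. Bri3 followed at 6.93 and -0.38, with no exact match to either motif in its window. Ip6k2, an inositol hexakisphosphate kinase, stood at 6.84 and 1.96, and Micall2, a Rab-binding adaptor, at 6.83 and 1.39.

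Hexa, the lysosomal hexosaminidase alpha subunit, stood at 6.76 for KLF1-ER and 1.85 for the mutant. Rhpn2 stood at 6.75 and 1.74, and Acp5, the tartrate-resistant acid phosphatase, at 6.74 and 1.66. The site of Gcnt1, which branches O-linked glycans, had 6.74 and 1.90 and held 3 matches, each with the word GGGCGTGG. Chmp3, an ESCRT-III subunit, had 6.72 and 1.05, and Elovl1, an elongase of very long fatty acids, 6.68 and 0.88. Of the 10 sites, Bri3 alone had no pyrimidine match in the central window and none had a purine match.

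Most lost sites held the pyrimidine motif and few held the purine motif. A pyrimidine match lay in the central window of 136 of 222 lost sites (61.3%), close to the 61.1% of partial sites and above the 42.5% of retained and 20.4% of mutant-only sites. Over all 2190 promoter sites the share was 37.3%, and in windows of the same length at the starts of 22167 protein-coding genes it was 16.7%. At least 2 pyrimidine matches were present in 58 lost sites (26.1%), against 22.7% of partial and 11.8% of retained sites. A purine match was found in 20 lost sites (9.01%), against 14.9% of partial, 28.3% of retained and 43.3% of mutant-only sites, and 8.37% of gene starts. At lost sites away from promoters, which met the same concentration limits, 65.9% held a pyrimidine match, 26.7% at least 2 and 14.3% a purine match. The pyrimidine shares were thus not particular to promoters. Sites are not replicates, so these shares were not tested.

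**Figure D2:**
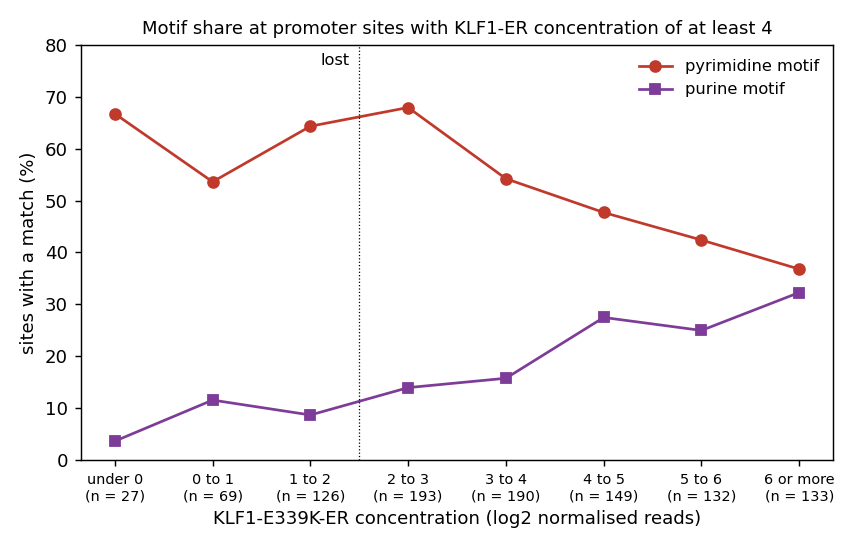
Percent of promoter sites with KLF1-ER of at least 4 that hold a pyrimidine (circles) or purine (squares) match in the central 101 bases, by KLF1-E339K-ER concentration in log2 normalised reads, with the number of sites under each bin. The 3 bins left of the dotted line are the lost sites, with purine shares of 3.70%, 11.6% and 8.73% against 32.3% in the highest mutant bin.

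The difference from retained sites was present at each level of KLF1-ER occupancy that both classes shared. Lost and retained sites held the pyrimidine motif in 60.6% and 40.3% at KLF1-ER 4 to 5, in 61.3% and 39.6% at 5 to 6, and in 62.9% and 48.5% at 6 to 7. The purine shares in the same bins were 8.51% and 35.7%, 10.8% and 23.5%, and 5.71% and 24.2%. Within the lost sites the motif shares showed no steady course with the mutant's concentration. The pyrimidine share was 66.7% of the 27 sites under 0, 53.6% of 69 sites at 0 to 1 and 64.3% of 126 sites at 1 to 2.

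Most pyrimidine matches in lost sites had cytosine at position 5, counted from 1 at the motif's free first base. Cytosine stood there in 187 of 230 matches (81.3%), against 73.0% in partial, 66.0% in retained and 48.9% in mutant-only sites. At lost sites away from promoters, which shared the concentration limits, it was 57.6%. The word GGGCGTGG was present in 52 lost sites (23.4%), 17.5% of partial, 5.56% of retained and 0.862% of mutant-only sites, and in 6.99% of all promoter sites. GGGCGGGG, which holds a GC box, was present in 73 lost sites (32.9%), 35.8% of partial and 25.4% of retained sites. At lost sites away from promoters GGGCGTGG was present in 22.5% and GGGCGGGG in 19.4%, so the GGGCGTGG share was not particular to promoters. By mutant concentration, cytosine made up 88.9% of matches in lost sites under 0, 94.5% at 0 to 1 and 75.0% at 1 to 2, against 59.3% in promoter sites where KLF1-ER was at least 4 and the mutant 6 or more. The thymine words GGGTGGGG and GGGTGTGG were present in 10.4% and 4.95% of lost sites, and in 16.9% and 20.6% of lost sites away from promoters.

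The median GC content of the window was 66.3% at lost sites and 68.3% at partial, retained, mutant-only and all promoter sites. Among the lost sites it was 60.4% at a mutant concentration under 0, 65.3% at 0 to 1 and 68.3% at 1 to 2. Words read by other factors of the red cell were scarce. The GATA word AGATAA was present in 4.05% of lost sites, against 6.52% of retained and 3.61% of all promoter sites, and CCAAT in 8.11% against 8.45% and 9.13%. The ETS word CCGGAAG was present in 5.41% of lost, 2.90% of retained and 3.79% of all promoter sites.

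The pyrimidine matches lay near the middle of the sites. In the 136 lost sites that held one, the closest match was a median of 11 bp from the midpoint, within 10 bp at 64 sites and within 25 bp at 111. The G-rich strand was the gene's own strand at 63 of these sites and the opposite strand at 73. Match density peaked at 16.2 per kb in the central 20 bp of lost sites, against 17.1 per kb in partial and 7.13 per kb in retained sites. The purine motif had 2.03 matches per kb in the centre of lost sites and 18.4 in mutant-only sites.

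**Figure D3:**
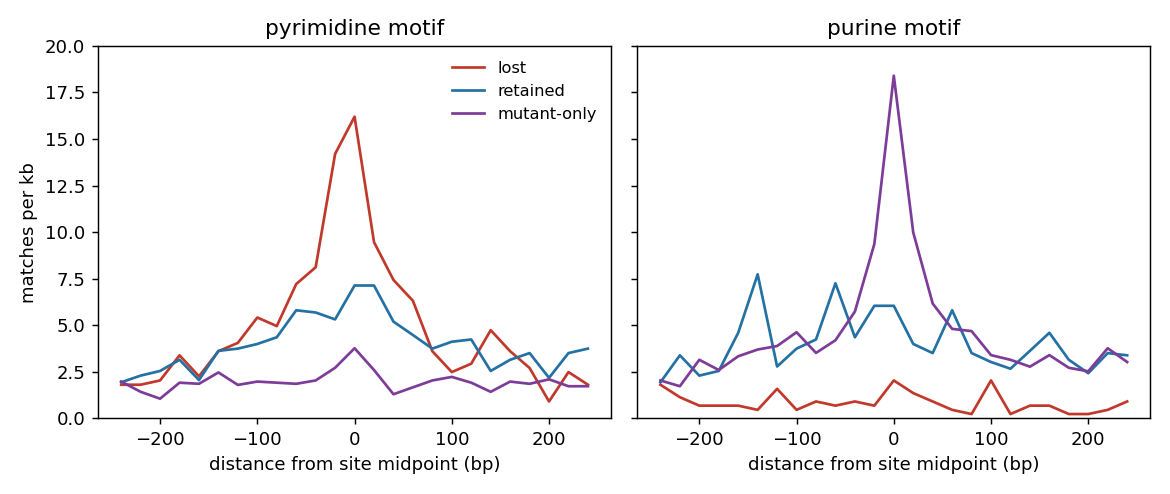
Matches per kb in 20-bp bins by distance from the site midpoint in bp, pyrimidine motif left and purine motif right, for lost, retained and mutant-only promoter sites. The lost sites have a central pyrimidine peak of 16.2 per kb, with partial sites, not drawn, at 17.1, and purine values no higher than 2.03 per kb in any bin.

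Of the 86 lost sites with no pyrimidine match in the central window, 51 had one elsewhere in the site and 35 had none. The most matches were 7 at Pqlc1 (KLF1-ER 5.60, mutant 1.25), 5 at 1110038F14Rik (6.10, 0.66) and E430018J23Rik (4.69, 1.64), and 4 at Prdx6 (6.32, 1.85) and Coasy (5.73, 1.21), the last encoding coenzyme A synthase. Purine matches without a pyrimidine match were limited to 7 sites (3.15%), against 12.3% of retained and 32.6% of mutant-only sites. Those with the highest KLF1-ER were Fmo5 (6.09, mutant 0.88), Mdc1 (5.82, 0.05), Arl4a (5.51, 1.39), Sgcb (5.48, 0.39) and Pigw (4.95, 1.64). Mdc1 is a mediator of the DNA damage checkpoint.

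Most lost sites lay upstream of the TSS within the 1000 bp allowed. The midpoint was upstream at 161 sites (72.5%), against 68.1% of partial, 60.9% of retained, 38.9% of mutant-only and 54.2% of all promoter sites. It was within 100 bp of the TSS on either side at 80 sites (36.0%), within 250 bp at 140 and beyond 500 bp at 37. The first 200 bp upstream held 46.8% of lost sites, 49.9% of partial, 34.5% of retained and 20.8% of mutant-only sites. By GENCODE release M1 the midpoint was intergenic at 122 lost sites (55.0%), intronic at 58 (26.1%), in an exon outside the coding sequence at 39 (17.6%) and in a coding exon at 3. Protein-coding starts on both strands lay within 1000 bp of the midpoint at 21 lost sites (9.46%), against 9.32% of all promoter sites. The sites were spread over 20 chromosomes. Chromosome 7 had the most, 21 of its 84 promoter sites with KLF1-ER of at least 4. The share was highest on chromosome 18, at 8 of 20, then on chromosome 12, at 11 of 32, and lowest on chromosome X, at 1 of 20. Over all such sites it was 21.8%, and with so few sites these counts show nothing particular to a chromosome.

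**Figure D4:**
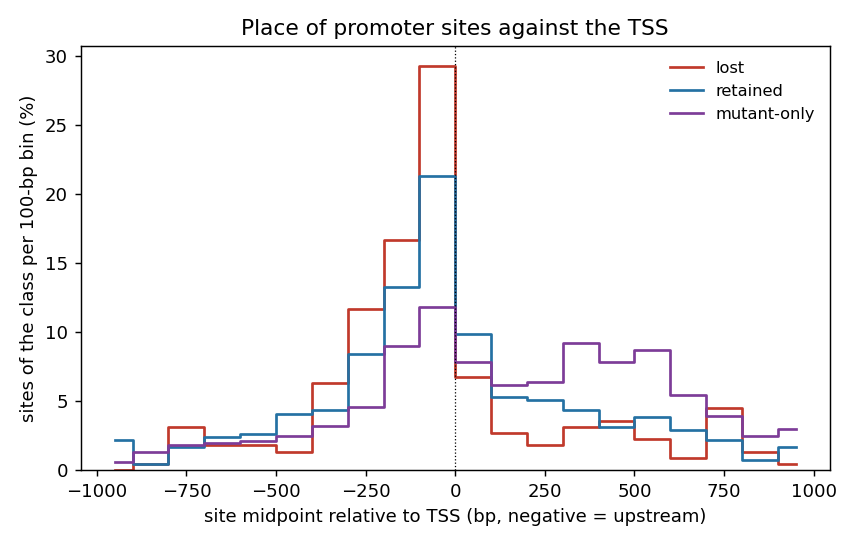
Percent of each class of promoter sites per 100-bp bin, by midpoint position relative to the TSS in bp, with negative values upstream. Lost sites are highest in the first upstream bin, at 29.3%, while mutant-only sites have most of their midpoints downstream.

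There were 5 genes with 2 lost sites at their promoter. Iqgap1, a scaffold of the actin cortex, had sites at KLF1-ER 6.52 (mutant 0.88) and 6.22 (1.39), 607 bp apart. Syf2, a splicing factor, had 6.67 (1.76) and 4.69 (1.21), 640 bp apart. The septin gene Sept10 had 5.84 (1.25) and 5.46 (1.05), 449 bp apart. Nt5dc3 had 6.02 (0.34) and 5.68 (1.08), 326 bp apart, and Sec22c, a protein of vesicle transport, 5.02 (1.85) and 4.50 (-0.38), 610 bp apart. Of these 10 sites, only the stronger Nt5dc3 site had no pyrimidine match in its window.

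Erythroid gene lists held almost none of the lost sites. The 6 lists for globins, heme, iron, red cell membrane, blood groups and erythroid transcription factors together had 34 promoter sites with KLF1-ER of at least 4, of which 1 was lost, 13 were partial and 20 were retained, beside 21.8% lost over all such sites. None of the 34 was a globin site, since the 3 promoter sites of that list had KLF1-ER under 4 and so could not be lost under the rule. The iron list had only 2 of the 34. The lost site was that of Tfr2, a transferrin receptor that senses iron and associates with the erythropoietin receptor, at 4.82 for KLF1-ER and 1.49 for the mutant with 2 pyrimidine matches. Of 11 sites of erythroid transcription factors and cofactors, 10 were retained and the other was partial. Gata1, the master regulator of red cell genes, stood at 7.43 for KLF1-ER and 6.79 for the mutant. Of 6 heme sites, 5 were partial and 1 was retained. Gata1 and the other sites named here that were not lost were chosen after their values were seen.

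Of the 222 lost sites 33 were in any list, and the share of all 1019 promoter sites with KLF1-ER of at least 4 in any list was not counted. Most of the 33 were at solute carrier, ubiquitin, cytoskeletal and ribosomal protein genes. The first 3 of these were the largest single lists, with 24, 25 and 25 such sites, so their number of lost sites follows list size in part. Solute carriers had 8 lost of 24 sites with KLF1-ER of at least 4, with a median mutant concentration of 2.73. This count and those of the lists below stand beside 21.8% lost over all 1019 such sites, and with so few sites in a list they show nothing particular to it. Slc5a6, a vitamin transporter, had 5.82 for KLF1-ER and 1.51 for the mutant, and Slc24a6, a mitochondrial sodium and calcium exchanger, 5.62 and 1.39 with 4 pyrimidine matches. The glutamine carrier Slc1a5 had 5.43 and 0.39. Slc9a5 had 5.29 and 0.34, and Slc35g1 5.04 and -0.38. A site of Slc35e4 was lost too, as was that of Slc3a2, the shared heavy chain of amino acid exchangers, at 4.34 and 0.05. Slc3a2 was the lowest of the 8 by KLF1-ER, so its values are given outside the order of KLF1-ER.

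Genes of ubiquitin transfer had 7 lost of 25 sites, with a median mutant concentration of 2.86. They were the F-box genes Fbxl8 (KLF1-ER 6.19, mutant 1.08), Fbxo43 (5.51, 0.82) and Fbxw9 (4.82, -0.38), the TRIM genes Trim3 (5.23, 0.05) and Trim24 (5.10, -0.38), and the deubiquitinases Usp28 (5.14, 1.96) and Usp10 (4.53, 0.88). Only Trim24 and Usp28 had a pyrimidine match in the window. Cytoskeletal genes had 5 lost of 25 sites, at Actr2, a subunit of the ARP2/3 complex (6.10, 1.97), both Sept10 sites, Myh7b (5.64, 0.88) and Tuba1a (4.82, 0.82).

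The ribosomal protein list had 4 lost of 7 sites. Among them Rps19 (KLF1-ER 5.04, mutant 1.97) encodes a small subunit protein mutated in Diamond-Blackfan anemia, and Mrps18b (5.94, 0.05) encodes a mitochondrial one. Another, Rps6ka3 (5.34, 1.39), is a kinase that the list took in by its name. No site was lost among 11 of Rab and TBC genes, 9 of which were partial, or among 4 of chromatin regulators, all retained. With so few sites these counts cannot be set apart from the 21.8% lost over all such sites.

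The other lists with lost sites had 1 or 2 each. Klf11, a repressor of the same family as KLF1, had a lost site at 5.34 for KLF1-ER and 0.88 for the mutant, and a second, partial promoter site at 6.21 and 2.52. Rbl1, which encodes the retinoblastoma relative p107, had 4.98 and 0.88. Pgd, an enzyme of the pentose phosphate pathway, had 5.08 and 1.55, and the peroxiredoxin gene Prdx6 6.32 and 1.85. Stard4, a sterol transport protein, had 5.62 and 1.21, and with Elovl1 made 2 lost of 7 sites in lipid synthesis. Zfp296 (5.68, 0.39) and Zfp438 (5.55, 1.03) were the lost sites of 12 at Zfp genes.

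**Figure D5:**
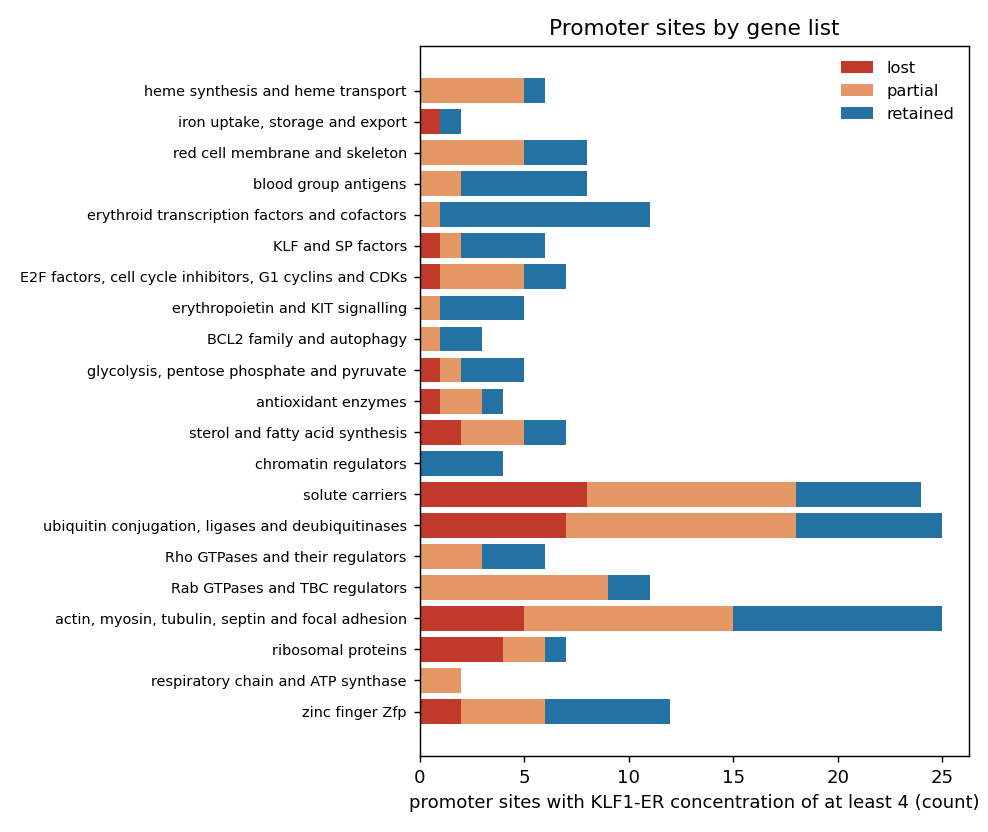
Number of promoter sites with KLF1-ER of at least 4 in each gene list, divided by mutant concentration into lost (under 2), partial (2 to under 4) and retained (at least 4). The erythroid transcription factor bar is retained except for 1 partial site, while solute carriers have 8 lost of 24 sites.

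Some promoters lost 1 site while the mutant was strong at another close by. Of the 222 lost sites, 41 (18.5%) had a consensus site with a mutant concentration of at least 4 within 10 kb. The share was 25.3% of partial, 41.8% of retained and 36.1% of all promoter sites. Retained sites are cut at the same mutant limit of 4, so close retained sites count each other, while lost and partial sites never count as neighbours. The order of these shares is thus partly fixed by the rule. Within 1000 bp there were 14 such neighbours, at 11 genes, and the closest lay 420 bp away. At 6 of these genes the neighbour had KLF1-ER under 4. A lost site of Ddit3, the stress-response factor CHOP, had 5.84 for KLF1-ER and 0.05 for the mutant, while sites 452 bp and 771 bp away at the same gene had 2.23 and 1.72 for KLF1-ER and 5.96 and 6.12 for the mutant. Both neighbours held purine matches and no pyrimidine match. Another neighbour, 661 bp away and closest to another gene, was bound by both proteins at 5.12 and 6.03. It held 1 match of each motif. Of the 14 neighbours within 1000 bp, 8 held a purine match and 3 a pyrimidine match.

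The reversal at Ddit3 recurred at other promoters, which were chosen after their values were seen. The lost site of Neu1, the lysosomal sialidase, had 4.67 for KLF1-ER and -0.38 for the mutant, and a neighbour 420 bp away had 0.91 and 4.79. At Zfp296, the lost site had 5.68 and 0.39. A site 432 bp away had 2.82 and 6.70, with no match to either motif in its window. Nmt2 had 4.61 and 1.37 at its lost site, and 1.50 and 5.63 at a site 918 bp away with 6 purine matches. Bri3 differed, since its neighbour 423 bp away was bound by both proteins, at 7.15 and 4.07.

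Besides the lost sites, 62 of the 217 genes were the closest TSS of 93 further consensus sites, 32 of them within 1000 bp of the TSS and 61 farther away. The mutant reached 4 at 16 of the 32 and at 36 of the 61, and 5 and 21 of these were mutant-only. The median mutant concentration over all consensus sites was 4.86, so most sites reached 4 anyway, and 812 of all 2190 promoter sites were mutant-only. A mutant concentration under 2 was found at 11 of the 93 sites, all with KLF1-ER of at least 4, beside 13.2% of all consensus sites within both limits. These counts show nothing particular to the 62 genes. The closest TSS is the nearest by distance, which does not show that a site acts on that gene.

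Genes next to the lost sites were expressed over a wide range. The authors' mean nascent RNA level, as log2 CPM (counts scaled to library size) over all libraries of their fit, was given for 196 of the 217 genes and had a median of 5.65 (quartiles 4.17 and 6.80). The median was 5.72 for genes at partial, 6.15 at retained and 6.24 at mutant-only sites, and 5.27 over all genes in the table. Among the highest were Usp10 (9.43), Nup210 (9.41) and Lmna (9.28), and among the lowest Insl6 (-1.29), a choice made after the values were seen. The level is 1 mean over all cell lines of that fit, which may include K1-ER libraries that are not samples of this series. It therefore gives no response to either protein, and fewer expressing cells and less RNA per cell cannot be told apart. Of 12 erythroid markers 11 were listed, at 5.29 to 10.80, and no lymphoid or hepatocyte marker was listed. Of 6 myeloid markers 3 were listed, at 0.24 to 1.84. Of 6 megakaryocyte markers 3 were listed, at 1.79 to 5.30, so the highest of them reached the lower end of the erythroid range.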

How the data were processed

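ChIP-seq of KLF1-E339K-ER (1 ChIP and 1 input library) and 4sU-RNA-seq (6 libraries) were mapped to mm9, and the submitters' processing notes name TopHat2 2.0.10, DiffBind and limma. The authors' deposited site table gives DiffBind's log2 concentration of wild type and mutant for each consensus site and the distance in bp, a score here, to the closest TSS. The deposited gene tables give limma's mean log2 CPM. All 3 tables also hold the authors' own comparisons (fold changes, t, p-values, FDR), which were not used. Neither counts nor depth are given, so no interval for a concentration follows, and it is not known whether the lowest mutant value is a detection floor.

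Members and gene lists were chosen with earlier results of these data known. Distances equal TSS minus midpoint on the plus strand at 1312 promoter sites and the opposite at 3. The sign could not be read at 767 with no matching start and 108 with the gene absent from the annotation, and was taken as the same there. Distances were turned by gene strand. Symbols turned into dates were restored. Sequence and annotation were NCBIM37 and GENCODE M1, read with pysam 0.24.0 in Python 3.11.15. The search was tested on simulated sequence, where 200 of 200 planted matches were found. Named sites were the 10 with the highest KLF1-ER, members of the 23 lists (examples by highest KLF1-ER above 5 members), genes with 2 lost sites, the 3 on each side of a limit, and the 5 with most pyrimidine matches or with purine matches alone. Other names are marked, and some named or sequenced items are not reported here. Alternatives changed the limits of the rule, the motif window, the neighbour distance and an expression filter. No test was run, since each protein has 1 value per site and sites are not replicates.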

Additional observations from a re-analysis of the deposited data

How the results depend on the processing

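The set of sites depended on its limits. A KLF1-ER minimum of 5 left 128 sites and mutant limits of 1 and 3 gave 96 and 415, against 222. Under a mutant limit of 1, cytosine at position 5 was 92.7%, median GC 64.4% and the upstream share 78.1%. A KLF1-ER minimum of 5 gave a median GC of 68.3%, and TSS within 500 bp an upstream share of 78.4%. In windows of 25 bp and 100 bp either side and over the whole site, the pyrimidine share was 45.0%, 75.2% and 84.2%, and the purine share 5.86%, 14.0% and 21.6%. Retained sites had pyrimidine shares of 22.9%, 62.8% and 80.2% and purine shares of 14.7%, 46.4% and 66.7% there, so the pyrimidine contrast was small over whole sites. Median GC was 68.6% within 25 bp and 62.6% over whole sites. The neighbour share was 11.7% within 5 kb, 37.8% within 50 kb and 11.3% for a mutant concentration of at least 5. Among the 144 lost sites whose distance matched an annotated start, an alternative chosen after seeing the data, the upstream share was 70.1%, against 59.4% of such retained sites. The other 37 of 56 recomputed values stayed inside the 95% binomial interval of the main value, or within 1.5 times the count. That interval treats sites or matches as independent replicates, which they are not, and the alternatives reuse sites of the main set. It served only as a yardstick for the size of a change. The unknown depth limits how low mutant values can be read. No paired analysis was possible because no result comes from a test.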
